A study of Mus musculus with 12 samples.

Results

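Hepatic gene expression was compared between male C57BL/6J mice that received low-dose cadmium (LDC) and male mice that received water. Of the 12 arrays of the series, 6 belong to this comparison, 3 from LDC males and 3 from control males, chosen by their gender and exposure labels. LDC was 100 nM cadmium chloride in the drinking water. The dams drank it from 1 week before mating. Their male offspring, housed with several mice per cage after weaning, drank it until 30 weeks of age, when the liver was taken. Control males and their dams drank water only, and both groups ate the same standard diet. The remaining 6 arrays, 3 from control females and 3 from LDC females of the same age and exposure, entered the fit of the spread and are given beside the male values where these are of use. By the labels, arrays of the same group are biological replicates, but which mice shared a litter or a cage is not stated in these sources, and p-values treat the mice as independent. They do not give the time of day at which livers were taken either.

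The liver makes plasma proteins, breaks down amino acids, stores and releases glucose, makes bile and inactivates hormones and foreign compounds. Hepatocytes do most of this work, beside endothelial cells, stellate cells, bile duct cells and the resident macrophages known as Kupffer cells. Cadmium is taken up by hepatocytes and bound there by metallothioneins, small cysteine-rich proteins whose genes respond to metals. Many liver genes also differ between male and female mice under the control of growth hormone, and many follow the circadian clock.

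The arrays were livers by their markers. Albumin (Alb), the main plasma protein, read 58130, 52170 and 55380 in control males 1, 2 and 3 and 49920, 51970 and 50690 in LDC males 1, 2 and 3, a log2 fold change of -0.12 ± 0.08 (SE, adjusted p = 0.68 in limma). The summed signal of 9 hepatocyte markers ran from 385600 to 438500 in the control group and from 384300 to 397500 in the LDC group, and overlapped. Median signals were 99.5 to 106.9 in control and 98.84 to 110.1 in LDC males. The ratio of the 3 prime to the 5 prime Gapdh probe sets, a measure of RNA integrity, ranged over 0.7662 to 0.8359 in the control and 0.6836 to 0.7626 in the LDC group (two-sided exact permutation test, p = 0.1, the smallest that 3 against 3 allows). The same ratio for actin was 1.765 to 1.981 in control and 1.851 to 1.955 in LDC males, and overlapped (p = 0.9 in the same permutation test). The part of RNA integrity in the results was not tested.

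In males, 75 of 27022 tested probe sets (0.278%) passed an adjusted p of 0.05 in limma, 43 higher (0.159%) and 32 lower (0.118%) in the LDC group. They named 59 of 12820 tested genes (0.46%), of which 32 were higher (0.25%) and 27 lower (0.211%). Log2 fold changes of the called probe sets ranged in size from 0.468 to 4.48, and 45 of the 75 differed by at least 2-fold. The 3 LDC arrays lay on one side of the 3 control arrays for all 75, which the choice by a small p favours. Of all named genes tested, 9.03% lay above and 8.99% below all control males by their brightest probe set. Over all named genes the median log2 fold change was -0.00777, with quartiles of -0.196 and 0.218. The calls rest on the intensity trend in the variance estimate. Without it, eBayes called 1 probe set, none of these 75, against 2440 probe sets at an unadjusted p under 0.05. Student's t-test on the male arrays called 0 after Benjamini-Hochberg adjustment and 2454 before it. None of the 75 changed sign in any alternative fit, but the lack of overlap fixes this for every fit without 1 array. Other filters, male arrays alone, no trend and Student's t-test leave the fold change as it is. Of the 75, 13 stayed called whichever of the 12 arrays was omitted. Without LDC male 1, 18 probe sets were called, and without LDC male 3, 17.

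**Figure D1:**
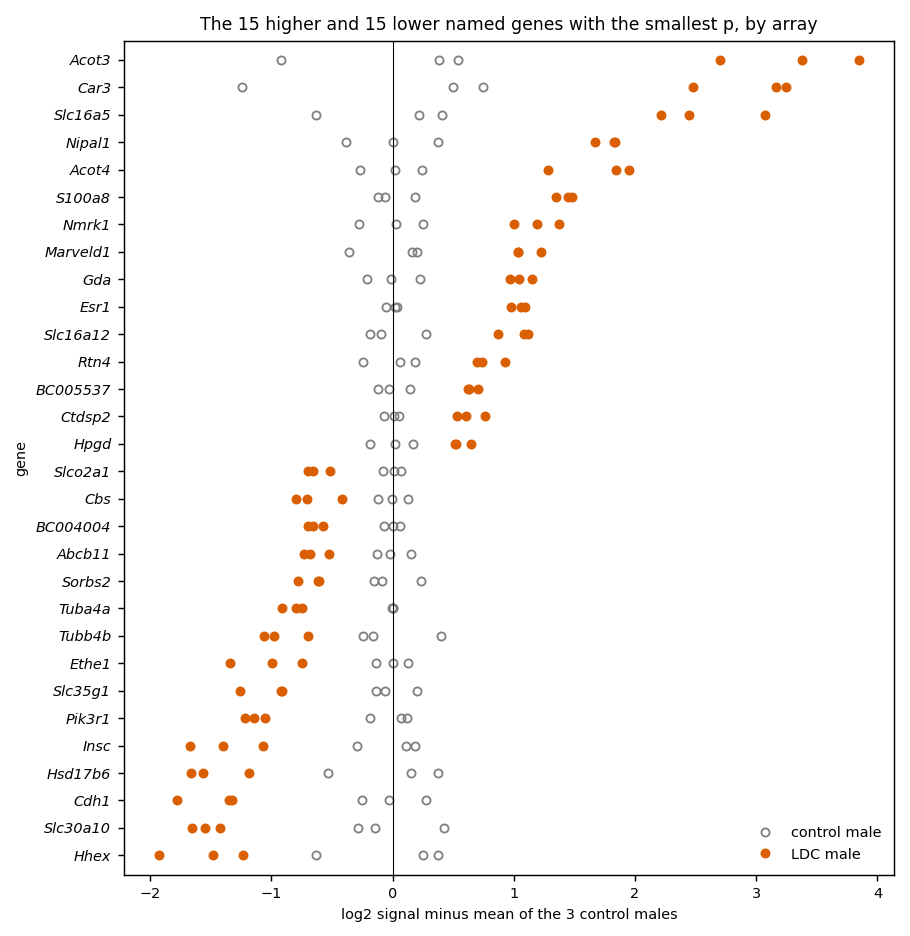
Log2 signal minus the mean of the 3 control males (x axis) for the 15 higher and the 15 lower named genes with the smallest p (y axis). Open points are control males and filled points LDC males, 1 point per array. For these 30 genes the filled points lie beyond the open points on one side, which the choice by a small p favours.

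Among 38 lists of liver functions, holding 1485 different tested genes, 19 had at least 1 called gene, and 32 of the 59 called genes were in at least 1 list, beside a called share of 0.46% of all named genes. The other 27 were in none. The lists were chosen with earlier results of these data known, and nothing is read from that count.

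Several membrane transporters rose. Slc16a5, which belongs to the monocarboxylate transporters, had signals of 238.7, 116 and 209.6 in the control males and 977.5, 836.2 and 1512 in the LDC males. Slc16a12, a creatine transporter of the same family, read 1111, 1441 and 1046 in control against 2573, 2170 and 2517 in LDC males. Both genes were up-regulated in every LDC array, Slc16a5 by 2.58 ± 0.34 (log2 fold change ± SE, adjusted p = 0.00578 in limma) and Slc16a12 by 1.02 ± 0.15 (adjusted p = 0.0135). Slc46a3, a lysosomal membrane transporter, and Slc15a4, a lysosomal carrier of histidine and peptides, were higher by 0.92 ± 0.17 and 0.72 ± 0.13 (adjusted p = 0.0365 and 0.0405). Nipal1, of a family of magnesium transporters, was called by 2 probe sets, at 1.78 ± 0.28 and 2.20 ± 0.42 (adjusted p = 0.0191 and 0.0462). Of the 74 tested solute carriers of organic acids, amino acids and sugars, 3 were called higher and none lower (0.25% and 0.211% of all genes). At an unadjusted p under 0.05, 13 were higher and 1 lower (5.59% and 5.88% of all genes), and their median log2 fold change was 0.109.

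Slc30a10 and the prostaglandin transporter Slco2a1 fell. Slc30a10 encodes a manganese exporter of the hepatocyte's bile canalicular side. Its signal was 604.5, 546.4 and 896.4 in the control males and 247.9, 211.7 and 228.5 in the LDC males, so that no array of one group reached the range of the other. It was down-regulated by 1.54 ± 0.21 on the log2 scale (adjusted p = 0.00761 in limma), and its second called probe set by 1.48 ± 0.24 (adjusted p = 0.0191). The 34 tested genes of zinc, copper and manganese handling had a median of -0.0639, and Slc30a10 was the 1 called, beside 0.46% of all genes. Mt1, a metallothionein, read 10460, 16690 and 21210 in control males and 23490, 35570 and 34260 in LDC males. Mt2 read 4324, 11250 and 12540 against 17660, 22540 and 22870. All LDC values of both metallothioneins lay above all control values, but neither passed the test (log2 fold changes of 0.98 ± 0.24 and 1.30 ± 0.33, adjusted p = 0.133 and 0.153). Slco2a1 read 1940, 1863 and 1748 in control and 1141, 1296 and 1176 in LDC males and fell by 0.62 ± 0.10 (adjusted p = 0.0246), while Hpgd, the enzyme that oxidises prostaglandins once inside the cell, rose from 6747, 6090 and 5283 to 8656, 8613 and 9408, by 0.56 ± 0.10 (adjusted p = 0.0299). Slc35g1, another solute carrier, went from 1923, 1527 and 1601 to 701.3, 887.2 and 890.5 and fell by 1.03 ± 0.17 (adjusted p = 0.0237).

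The promoter of Slc30a10 is shown because it holds the letters of the metal response element core, the motif bound by the metal-sensing factor of the metallothionein genes. The window runs from 250 bases before to 50 bases after the transcription start (RefSeq, build GRCm38.p6, chr1:185454598-185454897, plus strand), with matches to TGCACNC or TGCGCNC on either strand in capitals.
Slc30a10: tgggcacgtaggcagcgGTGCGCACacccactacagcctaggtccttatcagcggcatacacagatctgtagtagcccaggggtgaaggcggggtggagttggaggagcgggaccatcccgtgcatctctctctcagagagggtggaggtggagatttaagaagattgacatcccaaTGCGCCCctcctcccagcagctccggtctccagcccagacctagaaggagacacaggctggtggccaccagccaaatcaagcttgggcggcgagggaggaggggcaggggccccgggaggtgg
The capitals mark 3 matches. Those that begin 233 and 232 bases before the start overlap, since the letters read alike on both strands, and the third begins 73 bases before it. The motif was found in the promoters of 28.2% of 27025 genes, of 7 of 24 called higher genes and of 16 of 23 called lower genes with a promoter in the table. A match is a description of letters, not of binding.

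Nmrk1, Gda, Pdxk, Cmpk2 and Parp16, enzymes of cofactors and nucleotides, rose. Nmrk1, nicotinamide riboside kinase, which makes nicotinamide mononucleotide for NAD, had signals of 957, 1187 and 1380 in control and 3017, 2327 and 2653 in LDC males (1.19 ± 0.15 on the log2 scale, adjusted p = 0.00491 in limma). Every LDC value was above every control value, and the gene stayed called whichever of the 12 arrays was omitted. Nampt, the main NAD salvage enzyme, read 1798, 1278 and 1514 against 3615, 3093 and 4103, a difference of 1.24 ± 0.28 that did not pass the adjustment (adjusted p = 0.107, or 0.00975 with male arrays alone). Nmrk1 was the 1 called gene of 25 tested in tryptophan and NAD metabolism, beside a called share of 0.46% of all genes. The list's median was 0.124 and 19 genes were above 0 (48.8% of all genes). Gda, guanine deaminase, which sends guanine toward urate, read 855.6, 1013 and 746.2 in control and 1695, 1925 and 1781 in LDC males and rose by 1.06 ± 0.15 (adjusted p = 0.00855), with its brightest probe set at 0.968 (adjusted p = 0.0549). Pdxk, which phosphorylates vitamin B6, rose by 0.60 ± 0.11 (adjusted p = 0.0448). Cmpk2, a mitochondrial nucleotide kinase, was called at a low signal of 33.61 to 64.85 in control and 176.9 to 225.3 in LDC males (2.09 ± 0.38, adjusted p = 0.0401). Its control mean of 47.93 was under the filter on low signals (48.6), and its brightest probe set did not pass (1.39, adjusted p = 0.479). Parp16, an ADP-ribosyltransferase of the endoplasmic reticulum that uses NAD, rose by 1.18 ± 0.22 (adjusted p = 0.0401). Of 48 tested genes of purine and pyrimidine metabolism, 1 was called, beside 0.46% of all genes. At an unadjusted p under 0.05, 6 were higher and 5 lower (5.59% and 5.88% of all genes), and the median was 0.119.

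Ethe1 and Cbs of sulfur metabolism fell. Ethe1, the mitochondrial persulfide dioxygenase that clears sulfide, read 5063, 4657 and 4220 in control and 2763, 1826 and 2329 in LDC males. Cbs, cystathionine beta-synthase, which starts the route from homocysteine to cysteine, read 7775, 7169 and 8504 against 4768, 5839 and 4497. In both genes the LDC males lay wholly below the control males, with log2 fold changes of -1.03 ± 0.15 for Ethe1 and -0.64 ± 0.10 for Cbs (adjusted p = 0.0107 and 0.0191 in limma). They were the 2 called genes of 22 tested in sulfur amino acid and sulfide metabolism, beside a called share of 0.46% of all genes. By their brightest probe set, 3 genes were higher and 3 lower at an unadjusted p under 0.05 (5.59% and 5.88% of all genes), and the list's median was -0.0124. Selenbp1, a methanethiol oxidase, was at -0.49 ± 0.12 on the log2 scale and did not pass (adjusted p = 0.138).

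Bile acid and steroid genes moved in both directions. Abcb11, the bile salt export pump, read 11270, 10480 and 12760 in control and 6901, 7981 and 7133 in LDC males. Hsd3b7, an enzyme that modifies the sterol ring in bile acid synthesis, read 19840, 19220 and 15670 against 11580, 12060 and 10830. Both fell, Abcb11 by 0.65 ± 0.10 (adjusted p = 0.0179 in limma) and Hsd3b7 by 0.66 ± 0.12 (adjusted p = 0.0448), without overlap between the groups. The remaining 35 of 37 tested genes of bile acid synthesis and hepatic anion transport were not called, beside a called share of 0.46% of all genes. At an unadjusted p under 0.05, 8 genes of the list were higher and 5 lower (5.59% and 5.88% of all genes), and the list's median was 0.0541. That median was -0.0614 without control male 3 and -0.0204 without LDC male 1. Hsd17b6, a steroid and retinol dehydrogenase, read 9883, 5257 and 8451 in control and 2397, 2569 and 3347 in LDC males and fell by 1.47 ± 0.23 (adjusted p = 0.0179). Esr1, estrogen receptor alpha, read 879.5, 932.4 and 921.7 against 1899, 1944 and 1790 and rose by 1.04 ± 0.16 (adjusted p = 0.0153). These 2 were the called genes of 45 in steroid metabolism and hormone receptors, beside a called share of 0.46% of all genes. In that list 7 genes were higher and 6 lower at an unadjusted p under 0.05 (5.59% and 5.88% of all genes), with a median of 0.0568. Of 52 tested genes of phase I xenobiotic oxidation, 1 was called, beside 0.46% of all genes. At an unadjusted p under 0.05, 9 were higher and 5 lower (5.59% and 5.88% of all genes). The called gene, Fmo1, a flavin monooxygenase, rose from 4704, 4513 and 4023 to 7261, 5641 and 8589 (0.68 ± 0.13, adjusted p = 0.0448). Fmo2, of the same family, read 541.7, 369.5 and 549.1 in control and 1129, 804.1 and 1857 in LDC males (1.31 ± 0.27, adjusted p = 0.0652).

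Some tubulins and the epithelial cadherin were called lower. Tuba4a, an alpha-tubulin, had the smallest p of all probe sets, with signals of 14580, 14520 and 14440 in the control males and 7705, 8377 and 8654 in the LDC males (-0.82 ± 0.08 on the log2 scale, adjusted p = 0.000916 in limma). Its second probe set read 5517, 5192 and 5493 against 2889, 3156 and 3280 (-0.80 ± 0.08, adjusted p = 0.00133). The control values of each probe set lay close together and far above the LDC values. Tubb4b, a beta-tubulin, read 3522, 3332 and 5193 in control and 2432, 1888 and 1996 in LDC males. It and the beta-tubulin Tubb2a fell at their brightest probe sets, with log2 fold changes of -0.91 ± 0.15 and -1.34 ± 0.26 (adjusted p = 0.0246 and 0.0449). Of the 4 tested probe sets of Tubb4b only 2 were below 0, and they ranged from -3.24 to 2.11. Cdh1, E-cadherin, the adhesion protein of epithelial junctions, read 1543, 1327 and 1913 in control and 458.4, 618.4 and 630.2 in LDC males and fell by 1.49 ± 0.19 (adjusted p = 0.00513). Marveld1, a membrane protein of the MARVEL domain family, rose from 1498, 1455 and 1013 to 2676, 2664 and 3038, by 1.10 ± 0.16 (adjusted p = 0.0124). Of the 54 tested genes of tubulin, actin and cell junctions, 4 were called lower and 1 higher (0.211% and 0.25% of all genes), and the other 49 were not called. At an unadjusted p under 0.05, 8 were lower and 3 higher (5.88% and 5.59% of all genes), and the median was -0.024. Outside the list, the actin adaptor Sorbs2 read 2606, 3268 and 2495 in control against 1614, 1808 and 1821 in LDC males and fell by 0.67 ± 0.12 (adjusted p = 0.0325). The spindle orientation adaptor Insc read 614.1, 812.1 and 856.5 against 285, 237 and 358.7 and fell by 1.38 ± 0.24 (adjusted p = 0.0299). Neither gene overlapped between the groups. Nav2, a neuron navigator protein, fell by 1.01 ± 0.20 (adjusted p = 0.0472), but its 4 tested probe sets ranged from -1.32 to 2.13, with 3 below 0. Lin7a, a polarity scaffold, rose by 1.10 ± 0.21 (adjusted p = 0.0448).

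Signalling and transcription genes were called singly. Hhex, a homeobox factor of the hepatocyte, read 5097, 9407 and 10230 in control and 2075, 2831 and 3355 in LDC males and fell by 1.55 ± 0.24 (adjusted p = 0.0153 in limma). Onecut1, another hepatocyte factor, read 710.8, 1016 and 2204 against 470.7, 273.1 and 330.8 (-1.74 ± 0.44, adjusted p = 0.143). Of 50 tested hepatocyte transcription factors, 0 were called, and 9 were lower and 7 higher at an unadjusted p under 0.05 (5.88% and 5.59% of all genes). Hhex was not among the listed genes. Pik3r1, the regulatory subunit of phosphoinositide 3-kinase in insulin signalling, read 925.6, 775 and 961.4 in control and 379.2, 399.5 and 425.3 in LDC males (-1.14 ± 0.16, adjusted p = 0.00761), while its brightest probe set was at -0.44 (adjusted p = 0.0912). Sik1, a kinase induced by cyclic AMP, read 185.7, 115.7 and 165 against 366.8, 329.4 and 584.8 (1.44 ± 0.26, adjusted p = 0.0405). Those 2 were the called genes of 50 tested in growth hormone, insulin and IGF signalling, beside a called share of 0.46% of all genes. In that list 5 genes were higher and 7 lower at an unadjusted p under 0.05 (5.59% and 5.88% of all genes). Ctdsp2, a small phosphatase, rose from 1869, 1931 and 1771 to 2684, 3149 and 2830, by 0.63 ± 0.10 (adjusted p = 0.0237), and Il1r1, the receptor for interleukin 1, fell by 0.997 ± 0.19 (adjusted p = 0.0462). Pde9a, which breaks down cyclic GMP, fell by 1.29 ± 0.24 (adjusted p = 0.0448). Leap2, a secreted liver peptide that blocks the ghrelin receptor, read 4722, 5608 and 4396 in control and 2937, 3740 and 2758 in LDC males (-0.65 ± 0.12, adjusted p = 0.0448). The ephrin Efna1 and the phosphatase Ptprd were called higher through probe sets that were not their brightest (0.87 ± 0.17 and 0.52 ± 0.10, adjusted p = 0.0448 and 0.042), and the brightest did not pass (0.615 and 0.132, adjusted p = 0.138 and 0.754).

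Clock genes were called in both directions. Cry1, a repressor of the clock, read 182.9, 317.7 and 370.7 in control and 663.9, 646.4 and 939.8 in LDC males (1.41 ± 0.26, adjusted p = 0.0448 in limma). Lonrf3, a RING finger gene with a daily rhythm in liver, read 114.6, 87.84 and 162.7 against 417.9, 795.6 and 676.6 (2.37 ± 0.42, adjusted p = 0.0325). Clock, whose protein drives E-box genes, read 683.5, 684.9 and 857.9 in control and 426.3, 289.1 and 337.2 in LDC males (-1.09 ± 0.20, adjusted p = 0.04), with its brightest probe set at -0.465 (adjusted p = 0.383). The groups did not overlap in any of these 3 genes. Elovl3, a fatty acid elongase that is rhythmic and male-biased, was also called and is given with the sex-biased genes. Of the 35 tested clock and output genes, 2 were called higher and 2 lower (0.25% and 0.211% of all genes), and 27 were above 0 (48.8% of all genes). At an unadjusted p under 0.05, 10 were higher and 4 lower (5.59% and 5.88% of all genes). In the list 11 lay above and 5 below all control males (9.03% and 8.99% of all genes), and the median log2 fold change was 0.403. By array, that median was 0.196, -0.016 and -0.111 in the control males and 0.014, 0.416 and 0.527 in the LDC males, relative to the control mean, so LDC male 1 lay within the control range. The rise was not particular to males. In females the list's median log2 fold change was 0.286. By array it was 0.064, -0.012 and -0.097 in control and 0.146, 0.327 and 0.309 in LDC females, without overlap.

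Other clock genes were looked at after these values were seen. Wee1, a clock-controlled cell cycle kinase, read 361.3, 554.7 and 199.1 in control and 957.4, 1029 and 1056 in LDC males (1.57 ± 0.33, adjusted p = 0.0774 in limma), and Per3 read 477.4, 459.1 and 122.9 against 789.2, 1080 and 1187 (1.74 ± 0.60, adjusted p = 0.323). Tef, Nr1d2 and Nfil3 lay higher without overlap (0.51 ± 0.24, 0.42 ± 0.16 and 0.87 ± 0.32, adjusted p = 0.498, 0.389 and 0.371) and the repressor Nr1d1 lower (-1.02 ± 0.54, adjusted p = 0.559). Arntl, the partner of Clock, read 131.2, 118.3 and 303.3 in control against 130.7, 141.5 and 84.75 in LDC males. It overlapped between the groups, as did Dbp, Cry2, Per1, Per2, Hlf, Ciart, Bhlhe40, Rora, Noct, Rgs16 and Usp2. The light cycle of the colony is known, but the hour of sampling in each group is not stated, and an effect of the exposure and one of the hour cannot be told apart.

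**Figure D2:**
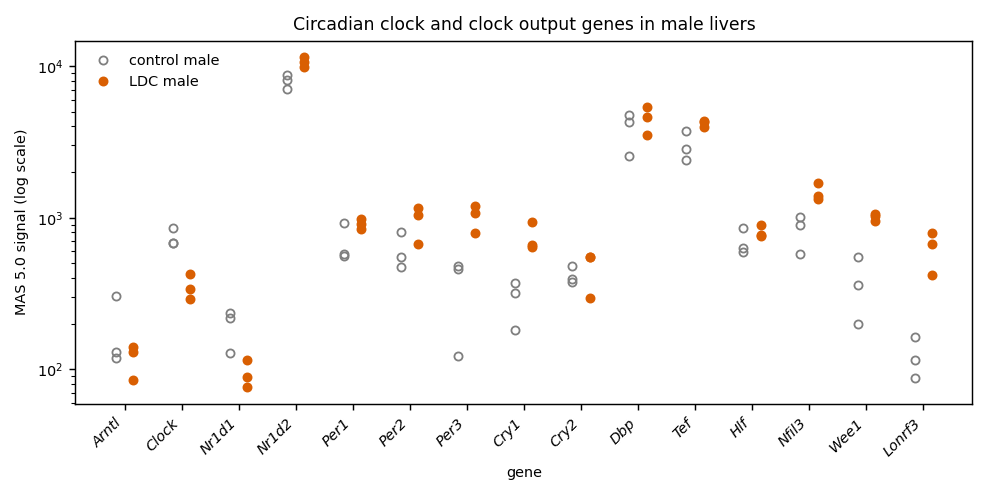
MAS 5.0 signal on a log scale (y axis) of 15 circadian clock and clock output genes (x axis) in the 3 control males (open points) and the 3 LDC males (filled points). Cry1, Lonrf3, Wee1 and Per3 lie higher and Clock lower in all LDC males, while Arntl, Dbp, Hlf, Cry2, Per1 and Per2 overlap.

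The promoters of Cry1 and Lonrf3, the 2 called higher clock genes, are shown because each holds the E-box, the motif CACGTG bound by the CLOCK protein and its partner. The windows run from 250 bases before to 50 bases after the transcription start (RefSeq, build GRCm38.p6), chr10:85185005-85185304 on the minus strand for Cry1 and chrX:36328159-36328458 on the plus strand for Lonrf3, with the E-box in capitals.
Cry1: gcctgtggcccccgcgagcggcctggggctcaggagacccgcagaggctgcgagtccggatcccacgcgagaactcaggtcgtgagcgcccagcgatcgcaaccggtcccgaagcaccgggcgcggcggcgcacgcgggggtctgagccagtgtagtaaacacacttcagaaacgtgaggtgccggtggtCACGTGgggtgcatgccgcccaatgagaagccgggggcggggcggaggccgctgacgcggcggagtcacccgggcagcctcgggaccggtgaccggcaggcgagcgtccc
Lonrf3: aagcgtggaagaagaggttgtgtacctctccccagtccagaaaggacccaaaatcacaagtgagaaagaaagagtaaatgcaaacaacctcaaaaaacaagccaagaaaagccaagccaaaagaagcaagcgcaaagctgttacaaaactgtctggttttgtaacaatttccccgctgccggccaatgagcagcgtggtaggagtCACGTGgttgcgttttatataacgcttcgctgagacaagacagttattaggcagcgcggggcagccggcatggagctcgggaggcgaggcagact
The E-box begins 60 bases before the start in Cry1 and 45 bases before it in Lonrf3. CACGTG was found in the promoters of 8.09% of 27025 genes, of 5 of 24 called higher genes (Cry1, Lonrf3, Acot4, Pdxk and Slc16a12) and of 1 of 23 called lower genes (Cbs). The D-box TTATGNAA was found in 3.99% of genes and in 2 called higher and 2 called lower genes, the antioxidant response element core TGACNNNGC in 14.0% and in 6 and 2, and the STAT5 site TTCNNNGAA in 9.55% and in 3 and 1.

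Proteasome subunits form the protease that degrades ubiquitin-tagged proteins. Of 48 tested genes matched by symbol, 17 were lower at an unadjusted p under 0.05 (5.88% of all genes) and none higher, and 20 lay below all control males (8.99% of all genes). In the list 38 were below 0 and 10 above it (48.8% of all genes were above 0), and the median log2 fold change was -0.204. Psmc3ip and Psme3ip1, whose symbols matched, are not subunits, and without them the median of 46 genes was -0.204 with 16 lower. The 1 called gene was Psmc2, an ATPase subunit, beside a called share of 0.46% of all genes. It read 5175, 6016 and 5594 in control and 4285, 3955 and 3883 in LDC males (-0.47 ± 0.09, adjusted p = 0.0448 in limma), and its brightest probe set was at -0.414 (adjusted p = 0.229). Psmd12 read 4057, 4346 and 4222 against 3168, 3364 and 3048 (-0.40 ± 0.10, adjusted p = 0.138). Psmd11 and Psmb3 had log2 fold changes of -0.39 ± 0.10 and -0.37 ± 0.10 (adjusted p = 0.138 and 0.157).

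Lower signals were found in the core and in the regulatory particle. Of 14 constitutive core subunits, 8 were lower at an unadjusted p under 0.05 with a median of -0.244, of 6 ATPases 1 with a median of -0.226, and of 11 other 19S subunits 7 with a median of -0.329. The 3 immunoproteasome subunits, which replace core subunits under interferon, were all above 0, with a median of 0.207 and none at an unadjusted p under 0.05. Of 11 activators, inhibitors and assembly factors, none was at that p, with a median of -0.0158. By array, the list's median was 0.028, 0.016 and -0.053 in control males and -0.112, -0.206 and -0.241 in LDC males, relative to the control mean. Without LDC male 3 the list's median log2 fold change was -0.149.

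Mitochondrial protein complexes had still smaller values of the same sign. Of 76 tested subunits of oxidative phosphorylation, 66 were below 0 and 10 above it (48.8% of all genes were above 0). At an unadjusted p under 0.05, 13 were lower and 1 higher (5.88% and 5.59% of all genes). In this list 24 lay below all control males (8.99% of all genes), none was called, and the median was -0.0876. Complex I, which oxidises NADH, held 33 of these genes, 8 of them lower at that p, with a median of -0.118, and complexes III, IV and V had medians of -0.0294, -0.104 and -0.0809. Ndufs4 of complex I read 4506, 4567 and 4320 in control and 3553, 3814 and 3712 in LDC males (-0.27 ± 0.09, adjusted p = 0.319 in limma). Mitochondrial ribosomal proteins, 76 tested, had 59 below 0, 7 lower (5.88% of all genes) and none higher at an unadjusted p under 0.05, and a median of -0.0908. Mrpl34 among them read 2066, 2292 and 2261 against 1702, 1595 and 1612 (-0.43 ± 0.11, adjusted p = 0.138). The 45 cytosolic ribosomal proteins had a median of -0.0251 with 1 gene lower and 1 higher at that p. MAS 5.0 scales each array to the same mean, so these differences are relative to the rest of the array, whose median moved by -0.00777.

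**Figure D3:**
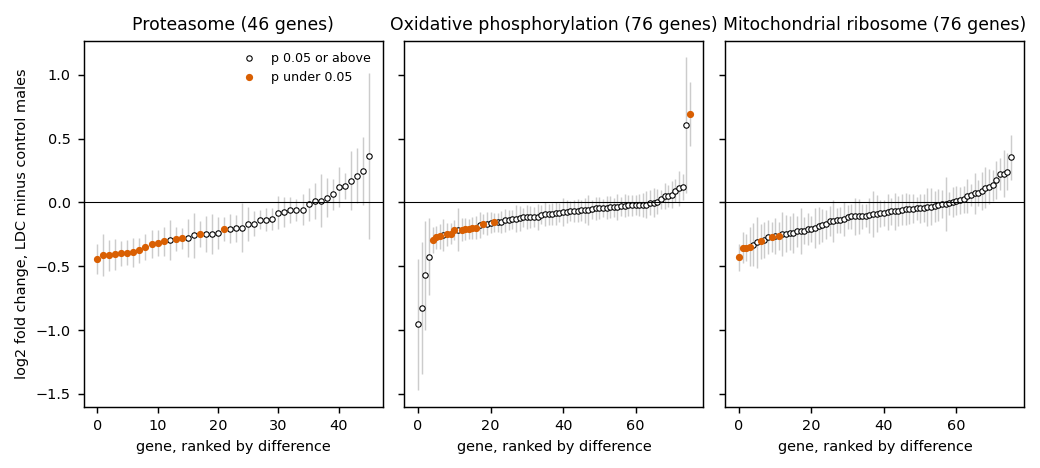
Log2 fold change of LDC males over control males (y axis, bars are 1 SE of the fit) for subunits ranked by it (x axis), in the proteasome (46 genes, without Psmc3ip and Psme3ip1), oxidative phosphorylation (76 genes) and the mitochondrial ribosome (76 genes). Filled points have an unadjusted p under 0.05. Most points lie below 0 in each panel, with medians of -0.204, -0.0876 and -0.0908.

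Most female-biased liver genes lay higher and most male-biased ones lower in the LDC males. Of 37 tested female-biased genes, 17 were higher and 2 lower at an unadjusted p under 0.05 (5.59% and 5.88% of all genes), 17 lay above all control males (9.03% of all genes), and the median log2 fold change was 0.581. The 3 called higher (0.25% of all genes) were Acot3, an acyl-CoA thioesterase, Nipal1 and Rtn4. Rtn4, which shapes the tubules of the endoplasmic reticulum, read 2174, 1991 and 1614 in control and 3180, 3096 and 3631 in LDC males (0.79 ± 0.12, adjusted p = 0.0134 in limma), beside 4771 to 5187 in control females, and its brightest probe set was at 0.581 (adjusted p = 0.068). Slc22a26, an organic anion transporter, was at 1.14 ± 0.22 on the log2 scale and just missed the threshold (adjusted p = 0.0527). Of 31 tested male-biased genes, 11 were lower and 2 higher at an unadjusted p under 0.05 (5.88% and 5.59% of all genes). Their median was -0.339, or -0.171 without LDC male 3. Elovl3 was the 1 called lower (0.211% of all genes). It read 13730, 14210 and 16530 in control and 4317, 3213 and 2100 in LDC males (-2.26 ± 0.42, adjusted p = 0.0436), beside 80.11 to 396.2 in control females. Serpina12, a secreted serpin, read 5670, 7309 and 8505 against 1808, 3830 and 1592 (-1.67 ± 0.34, adjusted p = 0.0678, or 0.0305 with male arrays alone). By array, the female-biased median was 0.511, 0.493 and 0.828 in LDC males against 0.178, -0.119 and 0.02 in control males, and the male-biased median was -0.116, -0.203 and -0.508 against -0.088, 0.051 and 0.037, without overlap in either list. Females also had a higher female-biased median under LDC, at 0.134, 0.12 and 0.31 against 0.087, 0.033 and -0.078 in their controls, without overlap. Their male-biased median overlapped (0.025, 0.123 and 0.26 against -0.144, 0.197 and 0.055).

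The female arrays show where such genes stood in the other sex. Car3, carbonic anhydrase 3, was called through a dim probe set at 139, 117.2 and 34.97 in control and 785.5, 462.7 and 741.6 in LDC males (2.96 ± 0.39, adjusted p = 0.00578 in limma), beside 2728 to 2863 in control females. Its brightest probe set was at -0.103 (adjusted p = 0.768). Nipal1, by the probe set 1456321_at, read 196.4, 116 and 152 in control males, 539.7, 480.2 and 537.5 in LDC males and 585.6 to 991.2 in control females. The LDC male values of Car3 thus lay between those of the control males and the control females, and those of Nipal1 below the control females. Slc16a5 read 729.1 to 806.2 and Slc16a12 1714 to 2244 in control females, levels that the LDC males exceeded or overlapped. The unnamed probe set 1443147_at had the largest difference of all called, from 113, 141.1 and 226.2 in control males to 3764, 1985 and 5326 in LDC males (4.48 ± 0.44, adjusted p = 0.000916), beside 2064 to 4506 in control females. Since the control males enter both sets of values, no relation between the LDC effect and the sex difference was computed.

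**Figure D4:**
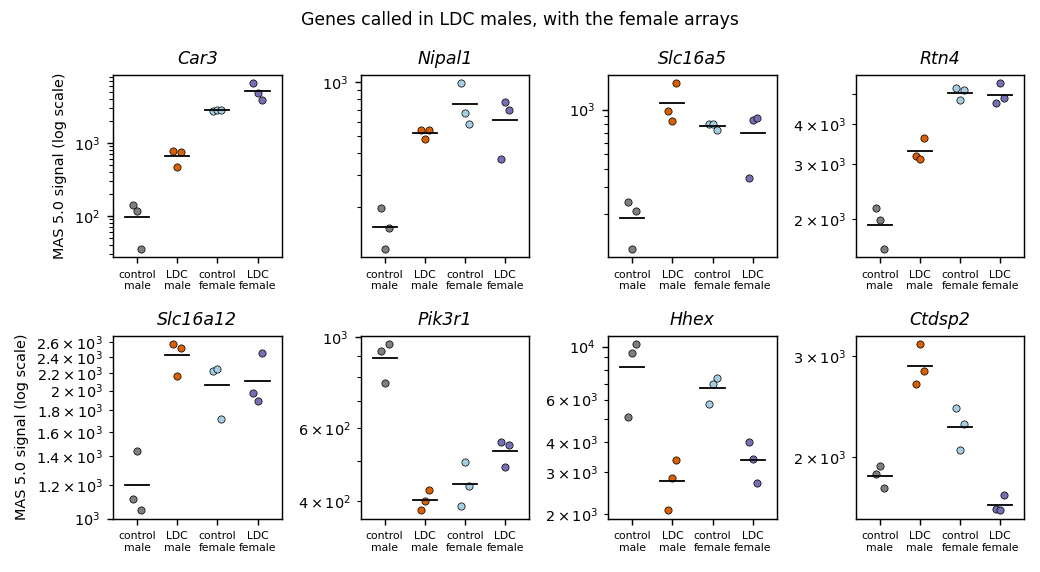
MAS 5.0 signal on a log scale (y axes) of 8 genes called in males, in control males, LDC males, control females and LDC females (x axes). Points are arrays and lines are group means. Car3 and Nipal1 are shown by the probe sets 1430584_s_at and 1456321_at. Control males are the lowest group for Car3, Nipal1, Slc16a5, Rtn4 and Slc16a12, and the highest for Pik3r1 and Hhex.

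Some genes of immune cells rose. S100a8, abundant in neutrophils, where it binds calcium, read 557.6, 579.8 and 691.1 in control and 1695, 1659 and 1545 in LDC males and rose by 1.43 ± 0.22 (adjusted p = 0.0178 in limma). Ncf4, a subunit of the phagocyte NADPH oxidase, read 104, 41.94 and 57.25 against 340.4, 336.4 and 239.3 and rose by 2.26 ± 0.39 (adjusted p = 0.0324). Iglv1, an immunoglobulin light chain gene whose probe set may also bind related genes, rose by 1.66 ± 0.32 (adjusted p = 0.0448). S100a9 and Ngp, also of neutrophils, had log2 fold changes of 1.29 ± 0.36 and 1.24 ± 0.31 without passing (adjusted p = 0.188 and 0.14). With male arrays alone S100a9 had an adjusted p of 0.0217. In a bulk sample, more cells of a type and more RNA per cell cannot be told apart.

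Summed marker signals lay higher for some cell types, and in such sums the brightest genes weigh most. The neutrophil sum includes the called S100a8. Of 17 neutrophil markers on the array, 7 of them under the filter, 12 were higher in the LDC males, and their summed signal was 2089, 2872 and 3328 in control and 6130, 6161 and 6151 in LDC males. Macrophage and Kupffer cell markers were higher for 18 of 19, with sums of 32320 to 33840 against 43660 to 62740, and those of B and plasma cells for 10 of 14, with 13270 to 14540 against 18450 to 23470. Sums of these 3 lists did not overlap. Among macrophage genes, Csf1r, the receptor that keeps macrophages alive, read 3677, 3846 and 3965 in control and 5995, 7238 and 5528 in LDC males (0.70 ± 0.31, adjusted p = 0.467, or 0.0247 with male arrays alone), and Cd163, a haemoglobin scavenger receptor, had 0.82 ± 0.28 (adjusted p = 0.321). Of 18 tested macrophage markers 13 lay above all control males (9.03% of all genes), with a median of 0.676 and none called. Endothelial markers were higher for 14 of 21, with sums of 16530 to 18160 against 18320 to 19690 that did not overlap either, T and NK markers for 10 of 16, with 1317 to 1613 against 1451 to 1687, stellate cell markers for 11 of 21, with 21610 to 28290 against 27930 to 29260, and bile duct markers for 5 of 12, with 2868 to 3526 against 2891 to 3093. Of 11 pancreatic acinar markers, 7 of them under the filter, 5 were higher in the LDC males. Their sums were 2461 to 2922 in control and 1378 to 2150 in LDC males, again without overlap. Cela1 made up most of these sums (2183, 1961 and 2472 against 967.7, 1279 and 1072, -0.999 ± 0.20, adjusted p = 0.0621, or 0.0152 with male arrays alone). Red blood cell markers were higher for 4 of 9, with sums of 3336 to 4580 against 2381 to 3448. Adipocyte markers other than Car3, which is also abundant in liver, were higher for 2 of 9, with 1811 to 2100 against 1496 to 2113.

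Interferon and antigen presentation genes lay higher beside these markers. Of 51 tested genes 40 were above 0 (48.8% of all genes), and 18 lay above all control males (9.03% of all genes) and none below. The median log2 fold change was 0.374, but 5 were higher at an unadjusted p under 0.05 (5.59% of all genes are) and none was called. By array the median was 0.308, 0.363 and 0.334 in LDC males against -0.003, -0.031 and 0.136 in control males. Xaf1, an interferon-induced gene, read 363.3, 406 and 343.7 in control and 587.3, 805.3 and 583.7 in LDC males (0.82 ± 0.27, adjusted p = 0.306 in limma), and the interferon factor Irf1 and the RNA sensor Ifih1 had 0.72 ± 0.26 and 0.37 ± 0.14 (adjusted p = 0.36 and 0.362). The part of the immune cell markers in these values was not tested.

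In LDC females the medians of these lists were below 0. The neutrophil list had a median log2 fold change of 1.12 in males and -1.46 in females, the macrophage list 0.676 and -0.832, the B and plasma cell list 0.388 and -0.726, and the interferon list 0.374 and -0.469. S100a8 itself fell in LDC females, by 3.17 on the log2 scale, and the male and female effects differed by 4.60 (adjusted p = 1.47e-05 in limma). By array, the LDC females lay wholly below the control females in the neutrophil and B and plasma cell medians and overlapped them in the macrophage and interferon medians. The differences of the list medians between the sexes were not tested.

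Several of the listed functions held no called gene, beside a called share of 0.46% of all named genes, at which a list of this size would hold less than 1. None of 54 tested genes of the urea cycle and amino acid breakdown was called (median 0.0836, 4 higher and 1 lower at an unadjusted p under 0.05, beside 5.59% and 5.88% of all genes), nor any of 66 plasma carrier, coagulation and complement proteins (median -0.0199, 4 and 2), 55 of glycolysis, gluconeogenesis and glycogen (median 0.0774, 7 and 4), 31 of the citrate cycle (median 0.0217, 3 and 4), 43 of heme and iron (median -0.0252, 3 and 3) or 40 antioxidant and glutathione enzymes (median 0.0315, 3 and 5). Phase II conjugation had 52 tested genes, the unfolded protein and amino acid stress response 44, heat shock chaperones 42, and cell cycle and DNA replication 44, with medians of 0.0011, -0.164, -0.0263 and 0.172 and no calls. At an unadjusted p under 0.05, 7 were higher and 5 lower in phase II conjugation, 1 and 6 in the unfolded protein list, 3 and 1 among heat shock chaperones and 2 and 3 in cell cycle and DNA replication. Single genes of these lists did differ without passing. Slc2a1, a glucose transporter, read 432.1, 336.3 and 343.2 in control and 616.2, 632.7 and 880 in LDC males (0.93 ± 0.21, adjusted p = 0.0924 in limma), and Pfkfb3, which makes the activator of phosphofructokinase, read 807.5, 504.6 and 1015 against 389.1, 314.7 and 237.3 (-1.28 ± 0.30, adjusted p = 0.113). Serpina6, the corticosteroid carrier of plasma, was at 0.84 ± 0.21 on the log2 scale (adjusted p = 0.14) and Gstp1, a glutathione transferase, at -0.38 ± 0.09 (adjusted p = 0.113).

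Of 36 tested periportal genes, those of hepatocytes near the incoming blood, 2 were called lower (0.211% of all genes), Cdh1 and Hsd17b6, with a median of 0.0356, and of 37 pericentral genes none was called, with a median of 0.0366. Acot3 read 170.3, 418.1 and 466.4 in control and 3335, 2096 and 4640 in LDC males, and Acot4 read 356.6, 435.6 and 506.9 against 1536, 1041 and 1658. Both lay far above their controls in every LDC male. Of 106 lipid metabolism genes 4 were called (0.46% of all genes), 2 higher (the acyl-CoA thioesterases Acot3 and Acot4, 3.31 ± 0.38 and 1.69 ± 0.21) and 2 lower (Elovl3 and Insig2, which restrains sterol synthesis, -2.26 ± 0.42 and -0.96 ± 0.18), with a median of 0.0277 (adjusted p = 0.00269, 0.00513, 0.0436 and 0.0448 in limma).

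**Figure D5:**
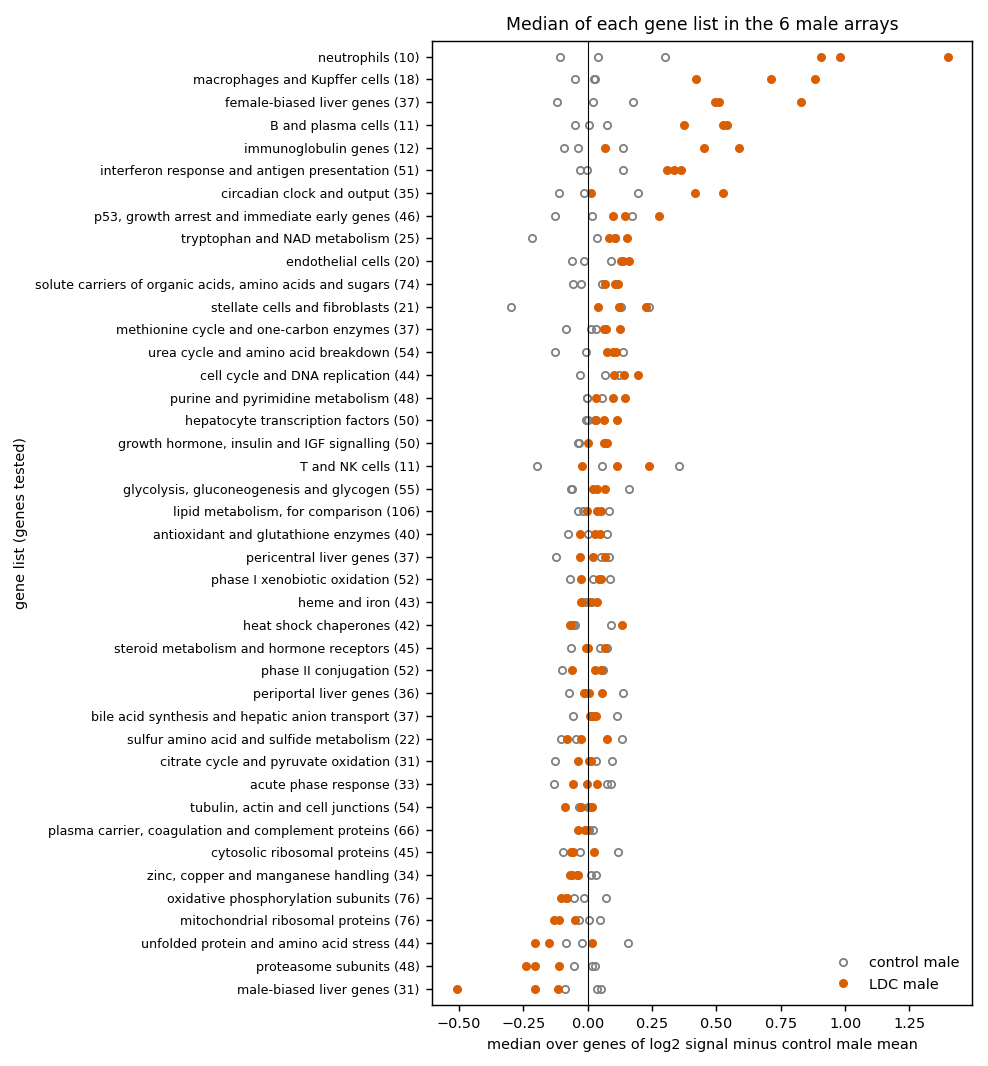
Median over the genes of a list of the log2 signal minus the mean of the 3 control males (x axis), for the 42 lists with 10 or more tested genes (y axis, number of genes in brackets). Open points are control males and filled points LDC males. Neutrophil, macrophage, female-biased, B cell and interferon lists lie to the right and proteasome and male-biased lists to the left in all LDC males, while most lists of liver functions overlap.

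The remaining called genes fall outside the groups above. Vmp1, an autophagy protein of the endoplasmic reticulum, read 9405, 12970 and 13110 in control and 6586, 7534 and 7948 in LDC males and fell by 0.67 ± 0.12 (adjusted p = 0.04 in limma). Psap, the precursor of the lysosomal saposins, rose by 0.53 ± 0.10 (adjusted p = 0.0462), with its brightest probe set at 0.224 (adjusted p = 0.535). Abhd2, a hydrolase, rose by 0.86 ± 0.15 (adjusted p = 0.033) and Nup62, a nuclear pore protein, by 1.76 ± 0.31 (adjusted p = 0.0325) through a probe set of a type that can bind several transcripts. BC005537 rose from 5720, 5057 and 4765 to 8001, 7969 and 8408, by 0.65 ± 0.10. BC004004 read 5835, 6088 and 5546 in control and 3910, 3701 and 3583 in LDC males, and fell by 0.64 ± 0.08 and 0.50 ± 0.10 at its 2 called probe sets (adjusted p = 0.0135 for BC005537, 0.00513 and 0.0448 for BC004004). Pnkd fell by 1.19 ± 0.22 (adjusted p = 0.0401), but its brightest probe set was at -0.00503 (adjusted p = 0.994). Of the 59 called genes, 38 had more than 1 tested probe set, and 31 of these 38 had all of them on the called side of 0. Abhd2, BC004004, Car3, Clock, Nav2, Rtn4 and Tubb4b did not. Of the 59, 11 were called through a probe set that was not the brightest. A further 11 called probe sets, 9 higher and 2 lower, had no gene or several genes in the annotation. Beside 1443147_at, 1441102_at rose, with signals between 97.96 and 128.2 in the control group and between 331.8 and 413.2 in the LDC group, and 1459187_at and 1440587_at fell by 1.01 ± 0.17 and 1.21 ± 0.23 (adjusted p = 0.00513, 0.0292 and 0.0448).

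The effect of LDC differed between the sexes at 48 of 27022 probe sets (0.178%), of which 20 were among the 75 called in males. The choice by the male effect favours such differences. Of the 75, 36 had the same sign in females, 14 an unadjusted p under 0.05 there, and 2 (S100a8 and Iglv1) were called in both sexes, with opposite signs. Tuba4a, lower in LDC males, had a log2 fold change of 0.34 in females, a difference of -1.16 (adjusted p = 0.000203 in limma), and Abcb11 had 0.14, a difference of -0.79 (adjusted p = 0.0459). Hhex was at -1.55 in males and -1.01 in females, and that difference did not pass (adjusted p = 0.618). Efna1 was likewise close in both sexes, at 0.87 and 0.72 (adjusted p of the difference 0.869).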

How the data were processed

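Total RNA of 12 livers was hybridised to Affymetrix Mouse Genome 430 2.0 arrays. The deposited table gives linear signal intensity values. According to their methods, the authors normalized them by MAS 5.0 with GeneSpring (MAS5 per the labels), and the table has no detection calls. This scaling sets each array to a common mean, so changes are relative. Of 45101 probe sets, 64 controls were left out. Gene names came from the platform's probe table, updated through the gene ID, with 1 gene for 34958 probe sets, several for 932 and none for 9211. Some genes are not reported here.

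Intensities were log2 transformed. Probe sets at or above the 40th percentile of the mean (signal 48.6), 27022 in all, were fitted with limma 3.58.1 in R 4.3.3 as 4 group means over 12 arrays (8 residual and 6.35 prior degrees of freedom, eBayes with an intensity trend), with Benjamini-Hochberg adjustment over all of them and calls at an adjusted p under 0.05. By the methods' criterion (2-fold, unadjusted p under 0.05), 343 genes lay higher and 261 lower.

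A gene in a list is given by its brightest probe set. Where another probe set made the call, its values are given with those of the brightest. All called genes were named, with array values for the 15 of each direction with the smallest p and others, the smallest p of each list, brightest cell type markers and fixed genes such as Mt1. The members and the 49 lists were chosen with earlier results of these data known. Lists were described by counts and medians, without set tests. Alternatives were other filters, normalizations, an added constant of 32, male arrays alone, 1 probe set per gene, no trend, array weights, Student's t-test, the replicate number as a block, and each array left out. The methods name Student's t-test for body composition and metabolic results, and no test for the arrays. The fit was also run on simulated arrays, drawn independently from the observed means and spread. Such a run cannot show whether the calls made here hold. With 3 arrays per group the number of arrays limits the precision. Figures were drawn with matplotlib 3.10.9.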

Additional observations from a re-analysis of the deposited data

Results flagged for a closer look

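The LDC effect in males differed from that in females, by the interaction contrast in limma, for the named genes below, each given as the male minus the female log2 fold change. The male effect was the higher one for the neutrophil genes S100a8 (4.60), S100a9 (4.05) and Ngp (2.99), the immunoglobulin genes Iglv1 (3.76) and Igha (3.23), and the metallothioneins Mt2 (5.53) and Mt1 (3.55). It was also higher for Acot3 (3.45), Acot4 (1.68), Slc16a5 (2.86), Gda (1.26), Esr1 (1.27), Nmrk1 (1.14), Ctdsp2 (1.08) and the unnamed probe sets 1443147_at (4.56) and 1441102_at (1.75). It was the lower one for Tuba4a (-1.16 and -1.19 at its 2 probe sets), Tubb4b (-1.54), Slc30a10 (-1.70), Pik3r1 (-1.41), Ethe1 (-1.20), Mrpl34 (-0.93), Abcb11 (-0.79) and Psmc2 (-0.71). Most of these genes were chosen for their male effect. Mt2, Mt1, S100a9, Ngp and Igha were not called in males, with log2 fold changes of 1.30, 0.98, 1.29, 1.24 and 0.87. In LDC females theirs were larger in size and negative, at -4.23, -2.57, -2.75, -1.75 and -2.36 (adjusted p = 3.15e-05, 0.00015, 0.00357, 0.0404 and 0.0123 in limma).

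For 3 lists every LDC array lay on one side of its controls in males and on the other side in females. Here the array medians of a list were averaged per group, unlike the list medians of the fold changes given above. The LDC minus control difference of these means in males, minus that in females, was 2.76 for neutrophil markers and 1.34 for B and plasma cell markers. It was -0.21 for subunits of oxidative phosphorylation, and these differences were not tested.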

How the results depend on the processing

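The count of 75 called probe sets (43 higher, 32 lower) fell to 1 (1 higher, 0 lower) by eBayes without a trend. It fell to 0 (0 and 0) by Student's t-test, under which the 32 called genes in function lists fell to 0. Replicate numbers did not pair the arrays (correlations of -0.0278, -0.0189 and -0.00557 for numbers 1, 2 and 3), and a replicate block gave 48 calls, 30 higher and 18 lower, and 25 list genes. Higher calls were 27 after median centring and 27 with 1 probe set per gene. Leaving out 1 array gave 17 to 103 calls, 9 to 63 higher and 8 to 40 lower, and 9 to 41 list genes. Calls were fewest without LDC male 3 (17), LDC male 1 (18), LDC female 2 (32), control male 3 (33) and control male 2 (36). Of the 75, 46 were called with male arrays alone.

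The 604 genes at the 2-fold criterion became 929 and 198 with the filter at the 20th and 60th percentile, and 339 when each gene kept 1 probe set. They became 1177 without a filter and 275 by Student's t-test, and lay between 571 and 703 without 1 array. The 48 probe sets that differed between the sexes became 30 with 1 probe set per gene, 10 without a trend and 22 to 78 without 1 array. No gene given with a value in the report changed sign in any alternative. Several alternatives, such as other filters or no trend, could not change it, since they leave the fold change as it is. Fmo2, Slc22a26, Wee1 and Mt1, not called, passed in at least 1 alternative, Mt1 with the replicate block (adjusted p = 0.0493). The cause of these shifts was not tested. Without detection calls, probe sets near background could not be marked.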
